A study of Mus musculus with 12 samples.

Results

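The comparison described here is that of liver after a hairpin virus against Angptl8 (shANG8) with liver after a control hairpin virus (shCtrl). It uses the 6 of 12 libraries whose labels name these viruses, 3 in each group. Both groups are liver RNA of wild-type mice, read 9 days after an adenovirus was given. The shCtrl animals received the shControl adenovirus and the shANG8 animals the ANGPTL8 knockdown adenovirus. The other 6 libraries are of wild-type liver 9 days after a control adenovirus (Ad_GFP) or an ANGPTL8 overexpression adenovirus (ANG8), and they enter only where both arms are set side by side. Adenovirus in the circulation of mice is taken up mostly by the liver, and the RNA is that of liver tissue, not of sorted cells. The labels give neither the age nor the sex of the mice, the dose or the number of hairpins used, and nothing in them states that each library is a different mouse. The p-values are therefore about the spread among these libraries, part of which may be technical. Of 54532 genes in the table, 13506 passed the filter on low counts in the 6 libraries and were tested.

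ANGPTL8 is a small secreted protein of liver and fat whose level rises with feeding. It takes part in the inhibition of lipoprotein lipase, the enzyme that frees fatty acids from circulating triglyceride, mainly in heart and muscle. Processed pseudogenes, which turn out to make up much of what follows, are copies of messenger RNAs that were inserted back into the genome. They lack introns and often differ from the coding sequence of their parent gene at only a few bases, and the genes of ribosomal proteins have many of them.

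The libraries held 12537083 to 14870527 counts, of which the tested genes took 99.8% or more. Between libraries of the same group the chi-square per gene was 14.6 to 54.5, above that of counting alone. The mitochondrial share of counts was 23.5% ± 0.681 (SD, n = 3) in shCtrl and 21.6% ± 2.0 in shANG8, with shANG8 replicate 3 lowest at 19.3% (exact two-sided permutation p = 0.2, where 0.1 is the smallest that 3 against 3 allows). Genes of the rRNA biotype took 0.0662%, 0.0332% and 0.0291% in shCtrl and 0.128%, 0.177% and 0.213% in shANG8, so the groups did not overlap (exact permutation p = 0.1). On the leading principal component (34.8% of the variance) shANG8 replicate 1 stood apart at 39.5, while the other 5 libraries lay between -16.6 and 6.7. The 20 hepatocyte markers were all detected, and their summed level overlapped between groups (68090 to 91000 CPM, counts scaled to library size, in shCtrl and 65732 to 89766 in shANG8).

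Angptl8 itself, the target (plus strand of GRCm38 chromosome 9, 21835510 to 21837347, ENSMUSG00000047822), was lower after the hairpin. The shCtrl libraries held 328, 380 and 162 CPM of it, and the shANG8 libraries 139, 138 and 77.0 CPM. The groups did not overlap, and replicate 3 was the lowest library in each. Mean levels were 290 ± 114 CPM (SD, n = 3) and 118 ± 35.5, a log2 fold change of -1.30 with a standard error (SE) of 0.33. This difference did not pass in edgeR's quasi-likelihood test (adjusted p = 0.346, exact permutation p = 0.1). DESeq2 called it (adjusted p = 0.00284), as did edgeR with every gene above 0 counts kept (1.05e-07) or with shCtrl replicate 3 left out (0.0411). Without shCtrl replicate 1 the adjusted p was 0.939, the highest of any alternative.

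Across the genome few genes were called. A gene was called at a Benjamini-Hochberg adjusted p under 0.05 in edgeR, and 23 of 13506 tested genes were called (0.17%). Of these, 8 rose (0.0592% of tested genes) and 15 fell (0.111%). At an unadjusted p under 0.05 there were 920 genes (6.81%). In simulated data with the depth of these 6 libraries, only genes with a mean above 2 CPM were changed. The test recovered 4.48% of 67 genes changed by 1.5-fold, 47.8% of 67 changed by 2-fold and 97.0% of 66 changed by 4-fold. There were 5 false calls among 13224 genes. These rates do not cover genes at lower levels. Some differences beyond 4-fold in the real libraries did not pass, among them that of Rpl35a-ps3 (log2 fold change -3.22, edgeR adjusted p = 0.185). DESeq2 called 92 genes (0.682%), and edgeR called 146 of 23153 genes (0.631%) when low counts were kept.

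By biotype, pseudogenes made up most of the 23 calls. Protein-coding genes did so with DESeq2 (48 of 92), with the replicate number as a block (50 of 86) and without the filter on low counts (93 of 146). Of 71 tested ribosomal pseudogenes (405 are in the table) 4 were called, 5.63%, with 1 up and 3 down. Of 446 other pseudogenes 10 were called, 2.24%, with 3 up and 7 down. Of 12140 protein-coding genes 8 were called, 0.0659%. Genes in the remaining classes, which hold provisional transcripts, small RNAs, rRNA and immune receptor segments among others, gave 1 call among 156. EdgeR called 0 of 475 long noncoding genes (23 at an unadjusted p under 0.05) and 0 of 218 antisense genes (10 at an unadjusted p under 0.05). The smallest p among long noncoding genes was that of Gm47465, at 1.31, 0.797 and 1.47 CPM in shCtrl and 2.34, 4.10 and 4.44 in shANG8 (log2 fold change 1.60, SE 0.44, adjusted p = 0.339). Among antisense genes it was that of 2810001G20Rik, at 4.71, 5.31 and 5.52 CPM against 2.63, 1.90 and 2.12 (-1.22, SE 0.33, adjusted p = 0.303). The strand setting of the counting is not given in the sources used here, so antisense values may hold reads of the gene on the other strand.

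Biotype alone did not show how alike the called genes are to other genes, so each gene was searched against all annotated transcripts. A gene was taken to have a near-identical copy where at least 50% of its coding sequence, or of its transcript if noncoding, matched another gene at 95% identity or more. That rule was set after the calls had been seen. It held for 1495 of 13506 tested genes (11.1%) and for 20 of the 23 called genes (87.0%). The share of calls with a copy was smaller in the fits that called more genes, at 60 of 92 with DESeq2, 49 of 86 with the replicate block and 70 of 146 without the filter on low counts. Copies of cytosolic ribosomal protein genes made up 15 of the 23, 5 up and 10 down, out of 162 tested (9.26%). Of these 15, 11 did not fall under the symbol rule for ribosomal pseudogenes. They include Rpl10-ps3, Gm11808 and Gm11361, which the table lists as protein-coding. One ribosomal protein gene, Rpl24, was also called. The remaining 4 with a copy were BC002163, Gm13341, Mup21 and Slfn4.

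The sequences of 3 of these pairs and of 2 identical ones are shown to make clear how little separates a called gene from its parent. They come from the GENCODE vM21 transcripts (GRCm38), 5′ to 3′, and capitals mark the bases at which gene and parent differ. Gm3362, on the minus strand (chr15:37943599-37943718), differs from the coding sequence of Rpl23a at 4 of 466 aligned bases, all of them in this window.
Gm3362: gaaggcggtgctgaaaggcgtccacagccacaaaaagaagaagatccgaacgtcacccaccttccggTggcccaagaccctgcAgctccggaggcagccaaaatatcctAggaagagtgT
Rpl23a: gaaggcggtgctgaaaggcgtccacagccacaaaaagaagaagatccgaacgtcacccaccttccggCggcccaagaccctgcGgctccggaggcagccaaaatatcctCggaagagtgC
BC002163, on the plus strand (chr16:42955631-42955750), differs from Ndufs5, a subunit of mitochondrial complex I, at 2 of 318 bases, and the longest stretch without a difference is 213 bases.
BC002163: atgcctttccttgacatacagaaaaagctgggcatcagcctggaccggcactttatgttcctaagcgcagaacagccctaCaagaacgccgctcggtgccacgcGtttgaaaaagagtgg
Ndufs5: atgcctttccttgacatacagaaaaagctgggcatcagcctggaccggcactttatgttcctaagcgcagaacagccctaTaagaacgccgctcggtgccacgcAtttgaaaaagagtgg
Gm9385, on the minus strand (chr9:116040751-116040870), differs from Rpl24 at 1 of 471 bases.
Gm9385: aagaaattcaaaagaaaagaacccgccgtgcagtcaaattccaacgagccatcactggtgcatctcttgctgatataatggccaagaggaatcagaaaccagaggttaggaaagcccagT
Rpl24: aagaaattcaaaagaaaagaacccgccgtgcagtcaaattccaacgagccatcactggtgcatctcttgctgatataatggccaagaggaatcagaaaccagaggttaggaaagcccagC
Rpl10-ps3, on the minus strand (chr9:50344822-50344941), matches Rpl10 over all 642 coding bases, and Gm10443, on the plus strand (chr6:86334031-86334150), matches Rps28 over all 207.
Rpl10-ps3: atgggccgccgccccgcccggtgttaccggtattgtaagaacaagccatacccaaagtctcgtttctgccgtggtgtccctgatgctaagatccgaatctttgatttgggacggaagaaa
Gm10443: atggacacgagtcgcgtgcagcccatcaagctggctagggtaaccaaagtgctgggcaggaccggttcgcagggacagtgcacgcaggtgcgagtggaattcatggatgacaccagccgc
Among 19 pairs of a called gene and its main match, 6 had no difference in the aligned part, and the median was 2 differences. How the counting treated reads that fit more than 1 place is not given in the sources used here, so the values of all 20 genes are uncertain as measures of the named locus.

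Among the genes edgeR called, the largest rises were those of copies of genes for proteins of the large ribosomal subunit. Gm3362 stood at 1.18, 1.06 and 1.25 CPM in shCtrl and at 16.2, 7.90 and 19.5 CPM in shANG8 (log2 fold change 3.64, SE 0.37, edgeR adjusted p = 0.00111). Every shANG8 library lay far above every shCtrl library. Gm10709, a copy of Rpl29 on chromosome 9 (7751725 to 7752204), stood at 0.655, 0.864 and 1.47 CPM against 9.50, 6.83 and 7.99 (3.02, SE 0.37, adjusted p = 0.00394). Gm11808, on chromosome 4 (3973092 to 3973595), stood at 5.56, 5.25 and 7.29 CPM against 36.6, 26.4 and 52.0 (2.67, SE 0.26, adjusted p = 0.00111). Smaller rises were those of Gm7536, identical to the coding sequence of Rpl27a (1.37, SE 0.19), and Rpl14-ps1 (1.24, SE 0.16).

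Among the genes edgeR called, the largest fall was that of Rpl10-ps3, from 20.5, 30.0 and 30.5 CPM to 2.63, 0.380 and 1.16 CPM (-4.26, SE 0.48, adjusted p = 0.00691). BC002163 fell from 6.09, 6.44 and 6.11 CPM to 0.438, 0.152 and 0.478 (-4.08, SE 0.45, adjusted p = 0.00177). The shCtrl libraries were close together for BC002163, and all shANG8 libraries were below 0.5 CPM. Rpl35a-ps2 fell from 8.12, 12.3 and 16.2 CPM to 1.32, 1.59 and 2.12 (-2.85, SE 0.34, adjusted p = 0.00314). Gm10443 fell from 35.2, 32.6 and 35.7 CPM to 11.1, 6.68 and 3.83 (-2.26, SE 0.31, adjusted p = 0.0106). Further falls were those of Rps12-ps4 (-2.60), Gm14303, a match of Rps29 (-2.18), Gm11361, a match of Rps18 (-2.13), Rps13-ps2 (-2.13), Gm6311, a match of Rps2 (-1.77), and Gm15772, a match of Rpl26 (-1.33). Gm13341, a nuclear copy of the mitochondrial gene mt-Co2, fell from 8.05, 12.3 and 12.2 CPM to 1.32, 2.35 and 1.78 (-2.58, SE 0.32, adjusted p = 0.00394). Gm3362, Gm10709, Gm11808, Rpl35a-ps2 and BC002163 were called in every alternative fit that tested them. With the mitochondrial share as a covariate these 5 were the only calls left.

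**Figure D1:**
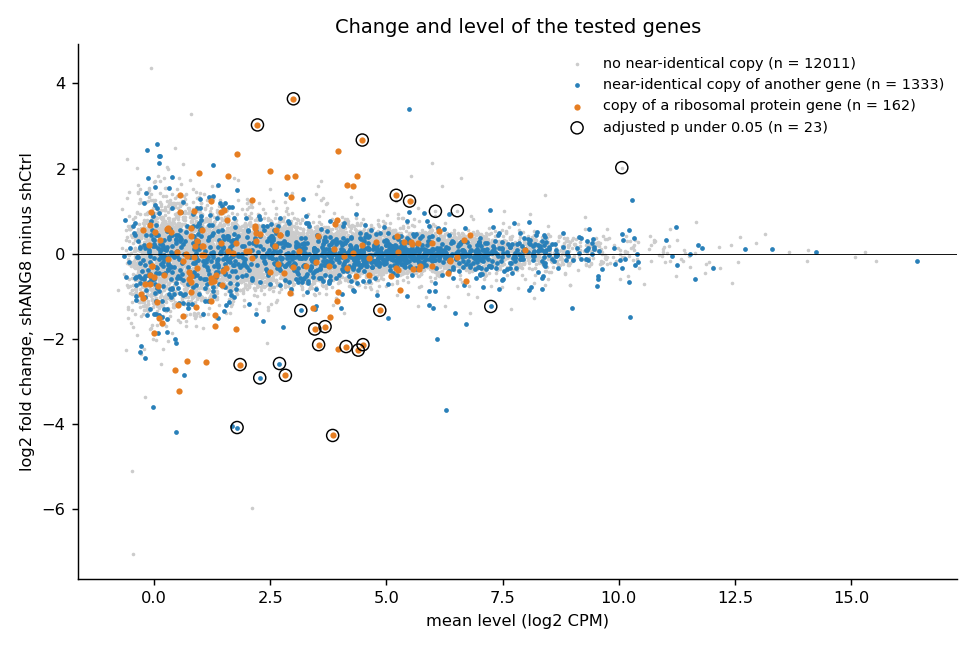
Log2 fold change (shANG8 minus shCtrl) against mean level (log2 CPM) for the 13506 tested genes, with orange points for the 162 copies of ribosomal protein genes, blue for the 1333 other genes with a near-identical copy and grey for the rest. Of the 23 circled called genes, 15 are orange.

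Reads of a gene and its copies were also added together. The sum was computed for each of the 20 called genes that have copies and tested in the table with all other genes. The median absolute log2 fold change was 2.22 for the genes alone and 0.15 for the sums, and 16 of 20 sums lay within 0.5 of 0. For most of the 20 this says little about the called gene, because 13 held under 10% of the counts of their set in shCtrl and their parents dominate the sum. All 13 of these sums lay within 0.5 of 0, and so did 3 of the 7 sums of genes with a larger share. One of these 3 is the set of Rps28. Gm10443 took 45.2% of the counts of the set in shCtrl and 8.76% in shANG8, Rps28 itself took 50.2% and 90.2%, and the sum had a log2 fold change of 0.11 (SE 0.19). Among the small members, BC002163 took 6.43% of its pair in shCtrl and 0.377% in shANG8, and Gm3362 took 0.712% and 9.05% of the Rpl23a set (sums -0.03, SE 0.19, and -0.02, SE 0.21). Rpl24 and Gm9385 are in the same set, and both fell. Their sum was 26.7, 30.2 and 34.4 CPM in shCtrl and 11.0, 8.65 and 7.52 in shANG8 (-1.75, SE 0.21, adjusted p = 0.00257), the only sum that passed. Rpl24, which encodes a protein of the large subunit, was at 6.87, 8.57 and 9.35 CPM against 1.68, 0.911 and 0.683 by itself (-2.91, SE 0.38, adjusted p = 0.00511), and its locus overlaps the gene Gm28037. Overlapping loci were not taken as copies, so the set of Rpl24 does not hold Gm28037. The mean of Rpl24 in shCtrl was 8.26 CPM, not on the log2 scale. The 79 ribosomal protein genes had a median of 7.97 on the log2 scale of CPM, which is a far higher level. The sum may therefore lack reads of Rpl24, which was not tested.

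**Figure D2:**
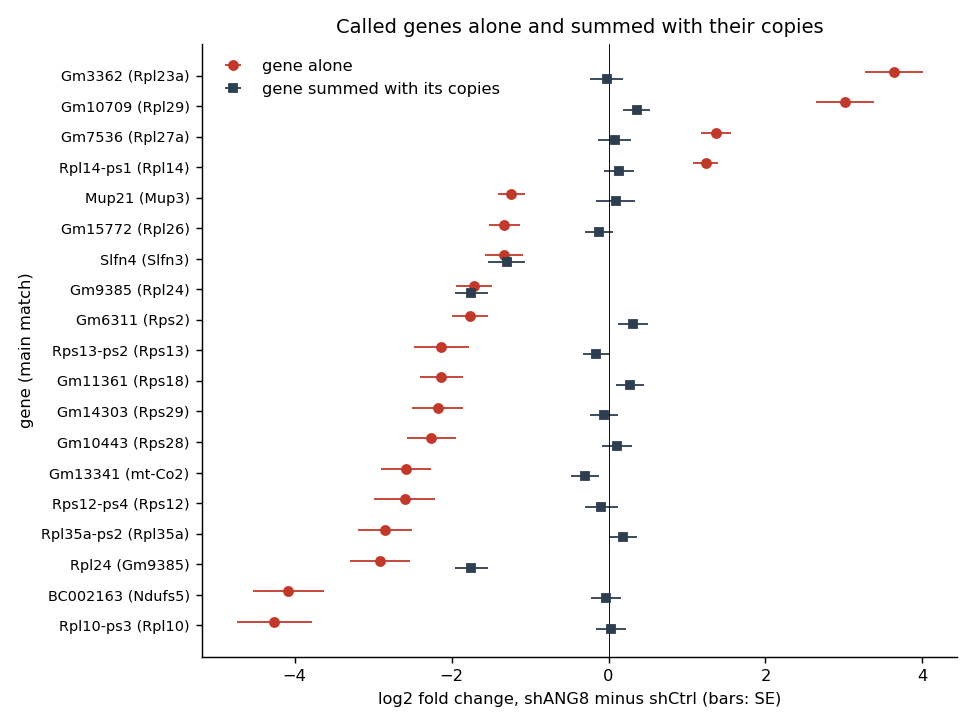
Log2 fold change (shANG8 minus shCtrl, bars are SE) of 19 called genes with a near-identical copy, alone (circles) and summed with their copies (squares), with the main match in brackets. The squares of 16 genes lie within 0.5 of 0, and those of Rpl24 and Gm9385 lie at -1.75.

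The ribosomal protein genes themselves held 1 call, Rpl24, among 79 tested (1.27%), with a median log2 fold change of 0.02. At an unadjusted p under 0.05 there were 15 of the 79, 7 higher and 8 lower. This is a larger share than the 6.81% over all tested genes. They took 2.33% ± 0.200 of the counts in shCtrl and 2.45% ± 0.204 in shANG8 (SD, n = 3, exact permutation p = 0.6). Ribosomal pseudogenes took 0.140% ± 0.00815 and 0.143% ± 0.0147 (exact permutation p = 1.0). The parents of the 4 called genes in the symbol class of ribosomal pseudogenes did not pass. Rps13 had a log2 fold change of -0.03 (SE 0.17), Rpl14 of 0.03 (SE 0.19), Rps12 of 0.13 (SE 0.24) and Rpl35a of 0.27 (SE 0.19). Rps28, the parent matched by the called Gm10443, was at 33.3, 50.4 and 31.4 CPM in shCtrl and 78.8, 83.2 and 60.6 in shANG8, without overlap (0.95, SE 0.21, adjusted p = 0.139). Each symbol family was also summed with the pseudogenes that carry its name. Of 61 families 0 were called by edgeR (10 at an unadjusted p under 0.05, against 6.81% of all tested genes). The median was 0.0 and the range from -0.79 (Rpl39) to 0.81 (Rpl21). Rpl24 has no pseudogene that carries its name and is not among the families. With all its copies by sequence, the sum of Rpl21 was 0.39 (SE 0.18). When the pseudogenes of a family were summed without the parent, 3 of 39 sums were called, with a median of -0.30. Over the 71 ribosomal pseudogenes the log2 fold change ran from -3.22 to 2.41, with a median of -0.09 against 0.01 over all tested genes, and the median absolute change was 0.49 against 0.20. Rpl35a-ps3 was lowest, at 1.96, 3.39 and 1.62 CPM against 0.584, 0.0759 and 0.0683, but did not pass (adjusted p = 0.185).

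Only 3 called genes had no near-identical copy, and all rose. CT010467.1, a gene of the rRNA biotype on chromosome 17 (39846353 to 39848827, minus strand), was at 633, 327 and 311 CPM in shCtrl and 1341, 1682 and 2135 CPM in shANG8 (2.02, SE 0.29, adjusted p = 0.0118). It carries the difference in rRNA share given above, and the part of that share in the other calls was not tested. Eif5b, the factor that joins the ribosomal subunits at the start of translation (chromosome 1, 37998010 to 38055579), was at 70.3, 60.8 and 52.0 CPM against 111, 134 and 124 (1.01, SE 0.18, adjusted p = 0.0387). Cyp2d40, a cytochrome P450 of the 2D family (chromosome 15, 82759833 to 82764183), was at 38.5, 46.2 and 48.1 CPM against 86.7, 96.9 and 81.5 (1.00, SE 0.17, adjusted p = 0.0323). In each of the 3 the groups were clearly separate. The calls were less firm: CT010467.1 passed in 12 of 17 alternatives, Cyp2d40 in 10 of 18 and Eif5b in 8 of 18, with highest adjusted p-values of 0.142, 0.241 and 0.568. When genes with a copy were left out before filtering and scaling, an alternative added after the data were seen, edgeR called 0 of 12011 genes (736 at an unadjusted p under 0.05, 6.13%), voom called 0 and DESeq2 called 18. In that edgeR fit CT010467.1, Eif5b and Cyp2d40 kept log2 fold changes of 2.02, 1.01 and 1.00 with unchanged SE. Their adjusted p-values were 0.115, 0.197 and 0.197. The adjustment depends on the other genes in the fit, so the 0 is not a change of these estimates.

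Mup21 and Slfn4 matched another gene less closely and fell. Mup21, a member of the major urinary protein family that male liver secretes in large amounts, was at 223, 211 and 205 CPM in shCtrl and 96.4, 98.3 and 76.2 in shANG8 (-1.24, SE 0.17, adjusted p = 0.00691). Mup21 takes 3.20% of the counts of its pair with Mup3 in shCtrl, and the change of the sum was 0.09 (SE 0.25). Slfn4, an interferon-inducible Schlafen gene of myeloid cells, was at 13.6, 12.2 and 11.9 CPM against 4.38, 5.92 and 4.65 (-1.33, SE 0.24, adjusted p = 0.0482). Slfn4 takes 99.0% of the counts of its pair with Slfn3 in shCtrl, and the sum fell short of the threshold (-1.30, SE 0.24, adjusted p = 0.0538). The call of Slfn4 was lost in 9 of 17 alternatives (highest adjusted p = 0.261).

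**Figure D3:**
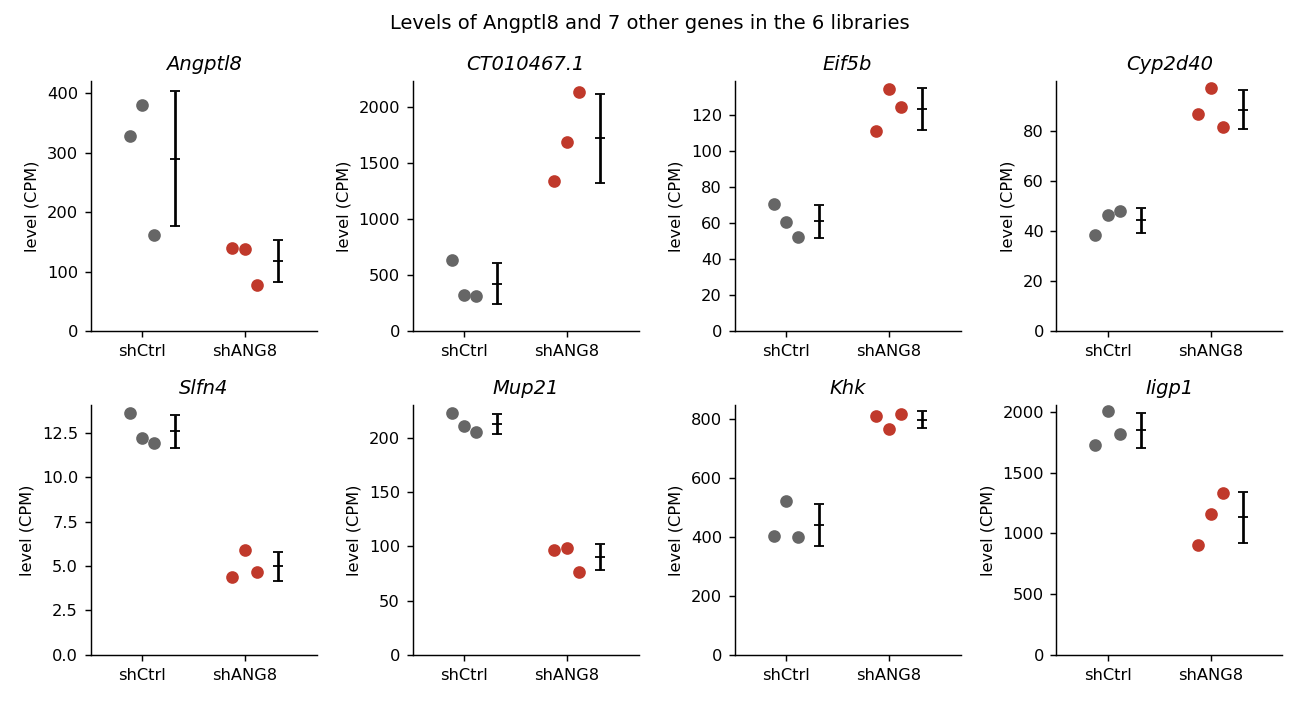
Level (CPM) in each of the 3 shCtrl and 3 shANG8 libraries for Angptl8, for 3 called genes without a copy, for Slfn4 and Mup21, and for Khk and Iigp1, which were not called, with the mean and SD beside the points. In all 8 panels the groups do not overlap.

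The genes that work with ANGPTL8 on triglyceride were read from a list of 19 tested members besides Angptl8. EdgeR called 0 of them (DESeq2 and voom also called 0, and 0 had an unadjusted p under 0.05), with 13 above 0, 6 below and a median log2 fold change of 0.11. Angptl4, a lipase inhibitor, was at 82.8, 60.7 and 94.9 CPM against 76.3, 98.5 and 132 (0.37, SE 0.23, adjusted p = 0.814). Its groups overlapped. The lipases Lpl (-0.06, SE 0.22), Lipc, the hepatic lipase (0.02, SE 0.16), and Lipg, the endothelial lipase (0.73, SE 0.36), did not pass, nor did Gpihbp1, which anchors lipoprotein lipase in capillaries (0.62, SE 0.34). Of the 19 members, 3 had groups without overlap, all higher in shANG8 (6.37% of all tested genes, and 13.1% in either direction). These 3 are apolipoproteins that act on lipoprotein lipase. Apoc1, an inhibitor, was at 5239, 5685 and 5221 CPM against 7210, 7390 and 6558 (0.39, SE 0.19, adjusted p = 0.745). Apoa5, an activator, was at 426, 448 and 488 CPM against 570, 524 and 654 (0.36, SE 0.18, adjusted p = 0.752). Apoc4 was at 1102, 1142 and 711 CPM against 1429, 1266 and 1242 (0.41, SE 0.21, adjusted p = 0.761). Apoc3 had a value of 0.21 (SE 0.21) and Apoc2, the cofactor of the enzyme, of -0.41 (SE 0.52), and both overlapped.

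Further lists covered liver metabolism, stress and immune genes. Over all 31 lists 736 genes were tested, of which 1, Mup21, was called. An unadjusted p under 0.05 was found for 83 of the 736. This is a larger share than the 6.81% over all tested genes (920 of 13506), but the lists were chosen with earlier results of these data known. In metabolism, 21 of 23 cholesterol synthesis genes lay above 0 (median 0.27), 18 of 23 genes of fatty acid synthesis (0.19) and 23 of 30 glucose and insulin genes (0.15), against 6891 of 13506 and a median of 0.01 over all tested genes. Of the 30 glucose genes 5 were higher at an unadjusted p under 0.05, against 3.5% of all tested genes. Khk, which phosphorylates fructose, was at 402, 523 and 399 CPM in shCtrl and 812, 766 and 817 in shANG8, and passed with DESeq2 (0.85, SE 0.19, edgeR adjusted p = 0.136, DESeq2 adjusted p = 0.000562). Pklr, the liver pyruvate kinase, was at 101, 139 and 108 CPM against 187, 180 and 166 (0.61, SE 0.18, adjusted p = 0.393). The clock list had the highest median, 0.41 over 19 genes, with Per1 at 19.2, 38.8 and 41.1 CPM against 54.8, 97.7 and 55.0 (1.07, SE 0.32, adjusted p = 0.503, DESeq2 adjusted p = 0.0426). The labels give no time of day for the tissue. Fatty acid oxidation genes had a median of 0.15 over 45 members and bile acid genes of 0.06 over 22, with 0 called by edgeR or DESeq2 in either (1 and 3 at an unadjusted p under 0.05).

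Lists of interferon-stimulated genes and of lymphocyte markers lay on the other side of 0, while that of Kupffer cell and macrophage markers did not. Of 42 interferon-stimulated genes, 40 lay below 0 (median -0.37), 10 had groups without overlap, all of them lower in shANG8 (6.69% of all tested genes), and 14 were lower at an unadjusted p under 0.05 (3.31% of all tested genes). EdgeR called 0 and DESeq2 1. Iigp1, an interferon-induced GTPase, was at 1724, 2004 and 1817 CPM in shCtrl and 908, 1158 and 1329 in shANG8 (-0.71, SE 0.20, adjusted p = 0.363, DESeq2 adjusted p = 0.0332). Rsad2, the antiviral protein viperin, was at 7.53, 9.03 and 8.17 CPM against 3.65, 3.95 and 5.67 (-0.89, SE 0.28, adjusted p = 0.456). Of 28 T cell and NK cell markers 25 lay below 0 (median -0.40), among them Cd8a, the CD8 alpha chain, at 12, 13.9 and 14 CPM against 8.69, 6.45 and 7.72 (-0.80, SE 0.22, adjusted p = 0.346). The summed level of these markers ranged from 191 to 232 CPM in shCtrl and from 126 to 187 in shANG8. The B cell sum ranged from 367 to 436 against 303 to 348, the neutrophil sum from 22.1 to 25.4 against 9.72 to 14.0, with Ly6g at 0 in all 6 libraries, and the cholangiocyte sum from 60.1 to 89.1 against 41.6 to 59.4. These 4 sums did not overlap, while all other marker sums did. Of single tested genes 13.1% had groups without overlap, 6.69% lower in shANG8. Only 3 of 13 neutrophil markers passed the filter on low counts. Of 10 cholangiocyte markers 6 passed it, with 4 below and 2 above 0. All 16 B cell and plasma cell markers passed it, with 12 below and 4 above 0. Each sum is weighted towards its most abundant members. The part of the 4 sums in the values of the interferon list and of Slfn4 was not tested. Of 25 Kupffer cell and macrophage markers 15 lay above 0 (median 0.16), with 3 higher and 0 lower at an unadjusted p under 0.05. Among them was Cd163, a scavenger receptor, at 0.524, 1.73 and 2.43 CPM against 7.45, 4.78 and 3.21 (1.73, SE 0.50, adjusted p = 0.42). DESeq2 called 1 of the 25, Marco, also a scavenger receptor (1.72, SE 0.43, DESeq2 adjusted p = 0.0161), which was far from passing in edgeR (adjusted p = 0.664). Macrophage sums (599 to 705 against 497 to 792 CPM) and endothelial sums (206 to 265 against 239 to 340) did overlap. In whole tissue, fewer cells of a type and less RNA per cell cannot be told apart.

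Lists of stress and of blood cells held several differences that passed with DESeq2 but not with edgeR. Mt2, a metallothionein that binds zinc and is induced in the acute phase, was at 1.44, 10.4 and 12.6 CPM in shCtrl and 0.0731, 0.304 and 0.0 in shANG8 (-5.97, SE 1.10, adjusted p = 0.157, DESeq2 adjusted p = 0.00275). The shCtrl libraries themselves spanned a wide range, and 1 shANG8 library had no count. Hba-a2, an alpha globin with a near-identical copy, was at 27.6, 54.5 and 62.9 CPM against 16.9, 12.8 and 20.8 (-1.52, SE 0.30, adjusted p = 0.133), and 8 of 9 erythroid and platelet markers lay below 0 (median -0.96). Their summed level ranged from 175 to 352 CPM in shCtrl and from 123 to 202 in shANG8, which overlap. Of 22 p53 and cell death genes 18 lay below 0 (median -0.28), among them Gdf15, a stress-induced cytokine, at 27.4, 23.6 and 21.8 CPM against 3.29, 8.35 and 16.1 (-1.39, SE 0.48, adjusted p = 0.641, DESeq2 adjusted p = 0.0426). Of 22 NRF2 targets, genes of antioxidant defence, 18 lay below 0 (median -0.22). Unfolded protein genes (28 tested, median -0.04), cytochrome P450 genes (29, -0.02) and nuclear genes of oxidative phosphorylation (75, 0.02) lay near the median of all tested genes. Ndufb2, a complex I subunit in the last of these, was at 18.4, 17.5 and 24.2 CPM against 11.8, 8.73 and 8.47 (-1.05, SE 0.22, adjusted p = 0.132, DESeq2 adjusted p = 0.0122). The male-biased list, which holds Mup21, had a median of -0.18 with 19 of 27 below 0, and 15 of its members have a near-identical copy. C6, a complement component in that list, was at 252, 232 and 196 CPM against 117, 160 and 121 (-0.77, SE 0.19, adjusted p = 0.215, DESeq2 adjusted p = 0.0187).

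**Figure D4:**
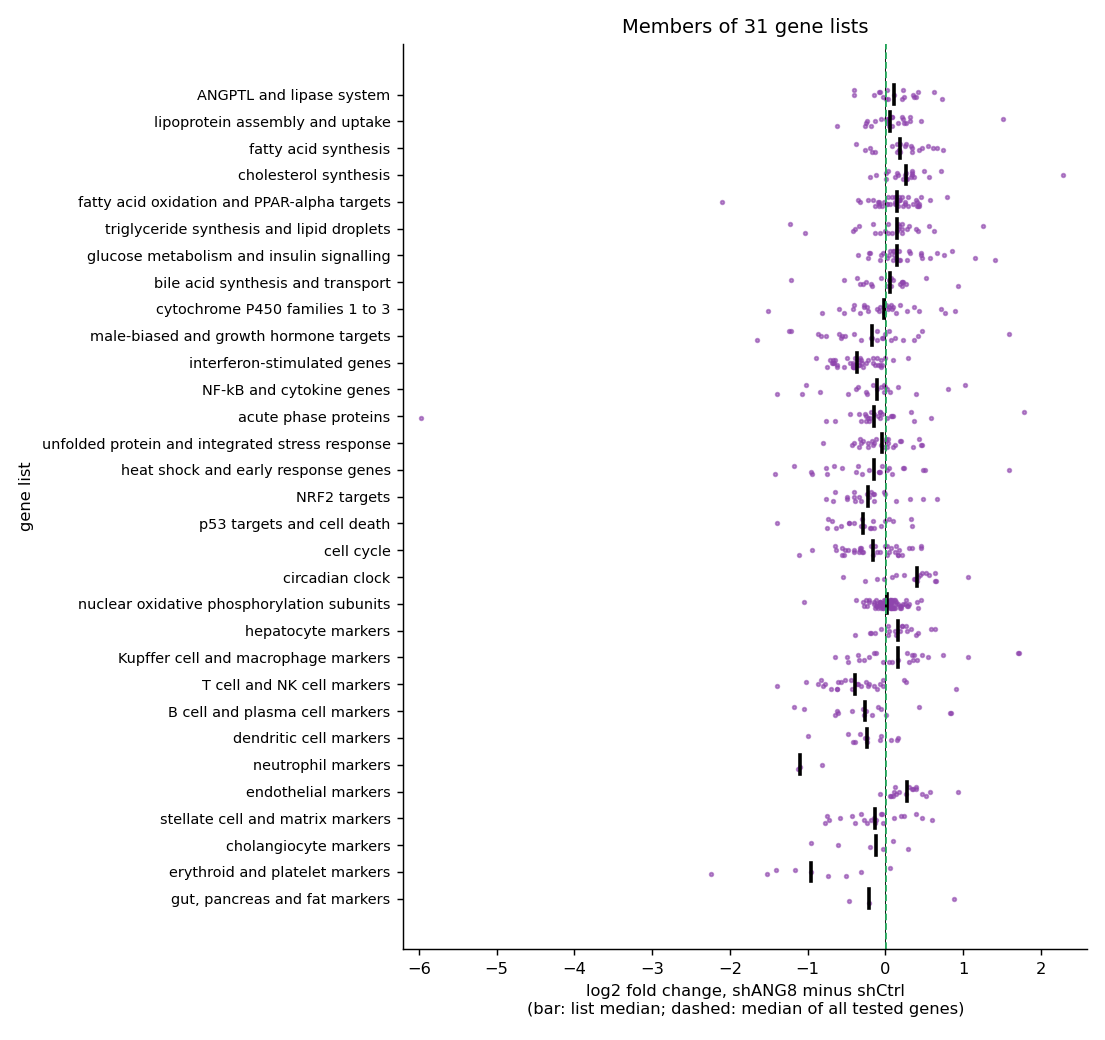
Log2 fold change (shANG8 minus shCtrl) of the tested members of 31 gene lists, with 1 point per gene, a bar at each list's median and a dashed line at the median of all tested genes (0.01). List medians run from -1.10 (neutrophil markers, 3 tested) to 0.41 (circadian clock), and Mup21 in the male-biased list is the only called gene.

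The same genes were then read in the overexpression arm, whose libraries are separate from those of the knockdown. Angptl8 moved in opposite directions, at 80.4 to 96.8 CPM in Ad_GFP and 165 to 314 in ANG8 (1.28, SE 0.33, adjusted p = 0.0201). The knockdown calls mostly did not. Of the 23 genes, 20 were also called in ANG8 minus Ad_GFP, where 13.5% of 14686 genes were called, and 19 of them had the same sign, 17 of these with a near-identical copy. Genes called under overexpression had a copy in 11.9% of cases, against 11.1% of the genes tested in the 12 libraries. Rpl10-ps3 was at 22.0 to 29.1 CPM in Ad_GFP and 1.72 to 3.15 in ANG8 (-3.42, SE 0.39), and BC002163 at 6.19 to 9.03 against 0.546 to 0.797 (-3.50, SE 0.36). Gm3362 was at 1.21 to 2.09 CPM against 8.85 to 16.4 (2.77, SE 0.36). CT010467.1 was at 287 to 290 CPM in Ad_GFP and 1474 to 1638 in ANG8 (2.42, SE 0.26), close to its levels in shCtrl and shANG8. Thus shANG8 and ANG8, with Angptl8 lowered and raised against their own controls, stood on the same side of these controls for these genes. Across the arms the levels of Angptl8 were not apart in this way. In the same fit it was at 167 to 391 CPM in shCtrl and 79.2 to 144 in shANG8. The range of shANG8 overlapped that of Ad_GFP, and the range of ANG8 overlapped that of shCtrl. The labels give no preparation or sequencing batch, so a batch and the group cannot be told apart in either arm.

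A test of the difference between the arms, in a fit of all 12 libraries, passed for 3 of the 23 calls (6.62% of all tested genes passed). Cyp2d40 was at 42.0 to 55.5 CPM in Ad_GFP and 9.92 to 15.8 in ANG8, so it fell there while it rose in shANG8 (difference 2.87, SE 0.27, adjusted p = 6.53e-05). Slfn4 was at 16.7 to 35.2 CPM in Ad_GFP and 33.8 to 47.4 in ANG8 (0.64, SE 0.23, adjusted p = 0.0742; difference -1.97, SE 0.34, adjusted p = 0.00327). Gm13341 did not pass under overexpression, at 9.33 to 10.4 CPM in Ad_GFP and 3.09 to 10.9 in ANG8, which overlap (-0.71, SE 0.36, adjusted p = 0.214; difference -1.86, SE 0.53, adjusted p = 0.0456).

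**Figure D5:**
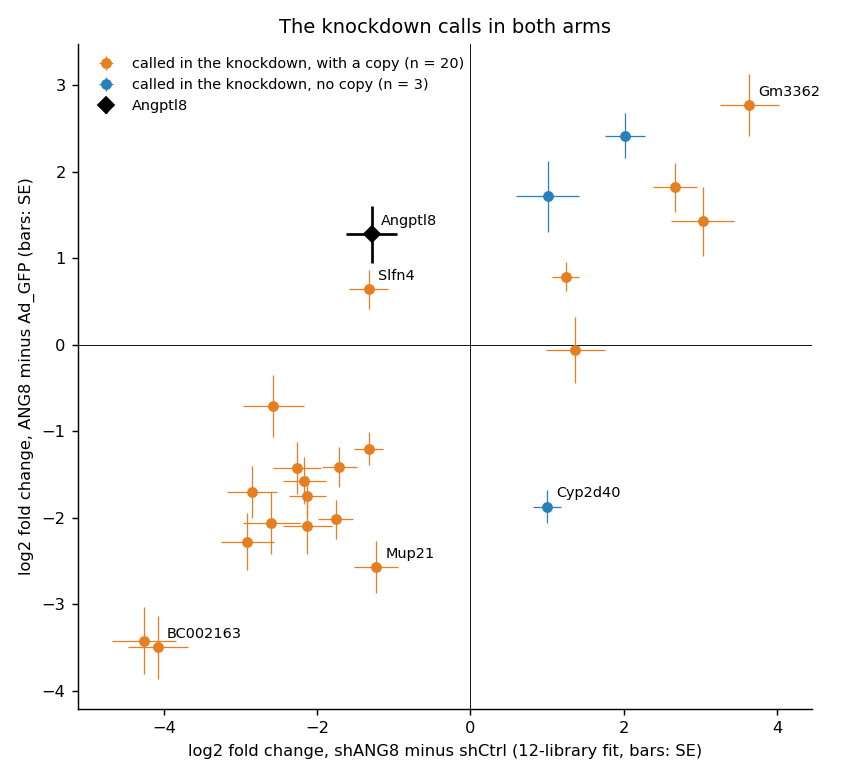
Log2 fold change of ANG8 minus Ad_GFP against that of shANG8 minus shCtrl in the 12-library fit (bars are SE) for the 23 genes called in the knockdown and for Angptl8 (diamond). Most points lie in the lower left and upper right, where both effects have the same sign, while Angptl8, Slfn4 and Cyp2d40 lie in the others and Gm7536 lies at -0.06 on the vertical axis.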

How the data were processed

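Counts of liver RNA sequencing libraries were analysed, 3 shCtrl and 3 shANG8 libraries for the knockdown and all 12 libraries for the comparison of arms. Trizol RNA and the NEBNext Ultra kit were used, per the labels' protocols. The table the authors deposited gives raw counts of reads for each gene, without normalization. The build mm9 and the tools CASAVA 1.8.2 and featureCounts 1.5.0-p3 are listed in the submitters' processing notes. Not given in the sources used here are the aligner, the strand setting and the handling of reads with several matches. Of 54495 gene IDs found in GENCODE vM21 (GRCm38), 98.3% have identical coordinates there, so positions are given as GRCm38.

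The counts were filtered with filterByExpr, scaled by TMM and tested with edgeR 4.0.16 (robust quasi-likelihood) in R 4.3.3, shANG8 minus shCtrl, with Benjamini-Hochberg adjustment over all tested genes. SE is the absolute log2 fold change divided by the square root of F. Levels are TMM-scaled CPM. The script was tested on simulated data. DESeq2 1.42.0, limma voom 3.58.1, other filters, scalings, covariates, fits and left-out libraries were tried. Copies were searched with BLAST+ 2.17.0.

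Named genes are Angptl8, the called genes that are not ribosomal pseudogenes whose mean log2 CPM was 1 or more (10 largest rises and 10 largest falls, filled up to 20 by the smallest p), the 8 ribosomal pseudogenes with the smallest p and their parents, 3 genes in each noncoding class, 2 in each list, and the ANGPTL and lipase list. Gm47465 and 2810001G20Rik came from this rule. The members, lists and rules were chosen with earlier results of these data known, and the search for copies and the sums over copies were added after the calls had been seen. Rpl39 and Rpl21 were named after their values were seen. A few genes and results are not reported here.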

Additional observations from a re-analysis of the deposited data

Results flagged for a closer look

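For 27 of 119 named genes, the effect of the knockdown (shANG8 minus shCtrl) differed from that of overexpression (ANG8 minus Ad_GFP) by a test of the difference itself in the fit of 12 libraries (edgeR adjusted p under the threshold), where 6.62% of all tested genes passed. Many of the 119 were named for a small p in the knockdown, so this share is no comparison with all genes. The values are knockdown minus overexpression effects on the log2 scale. Such a difference can come from either arm. With 1 library left out, the knockdown effect of Lipc ran from -0.07 to 0.08 and that of Lpl from -0.24 to 0.21. The knockdown effect lay above that of overexpression for Cyp2d40 (2.87), Gm47465 (3.78), Apoc1 (1.11), Lipc (1.92), Apoa5 (1.36), Apoc4 (1.03), Pklr (3.02), Fdps (3.68), Pmvk (1.7) and Khk (1.77). It lay below for Angptl8 (-2.58), Gm13341 (-1.86), Slfn4 (-1.97), Gm13431 (-2.76), AU020206 (-1.42), Lpl (-1.77), Rsad2 (-1.93), Ccl3 (-3.14), Creld2 (-1.11), Egr1 (-2.77), Mlkl (-2.35), Gdf15 (-3.18), Mcm6 (-2.02), Cd8a (-2.34), H2-Ab1 (-1.76), Csf3r (-1.25) and Ppbp (-2.59). The former include enzymes of glycolysis, fructose use and sterol synthesis, and the latter include genes of interferon, T cell, chemokine and stress lists. Only Cyp2d40, Slfn4 and Gm13341 among these were also called in the knockdown. Fdps, Gm13341 and Slfn4 have near-identical copies and are uncertain.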

How the results depend on the processing

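The count of 23 called genes was within 1.5 times of itself with DESeq2 size factors, a filter of 1 CPM in 3 libraries, voom, all 12 libraries in the fit, library sizes without mitochondrial genes and without ribosomal pseudogenes. It was 146 without the filter on low counts, 92 with DESeq2, 86 with the replicate block, 5 with the mitochondrial share as a covariate, 5 with coding genes only and 0 without genes that have a copy. With 1 library left out it ran from 14 (without shCtrl replicate 2) to 38 (without shANG8 replicate 3). Coding calls (8) became 93 without the filter, 48 with DESeq2, 50 with the block, 1 with the covariate, 5 when fitted alone and 0 without copies, and 5 to 18 with a library left out. Calls of ribosomal pseudogenes (4) became 14, 11, 8 and 1 with no filter, DESeq2, the block and the covariate, and 2 to 5 with a library left out. Calls of other pseudogenes (10) became 34, 31, 26 and 3 in the same order, and 7 to 14 with a library left out. Calls in the remaining classes (1) became 2 with no filter, 2 with DESeq2, 0 with the covariate, 0 without copies and 0 to 2 with a library left out. Long noncoding calls (0) became 2 with no filter and 1 with the block, antisense calls (0) became 1 with no filter, and either was 0 to 1 with a library left out. The cause of these shifts was not tested, beyond the fewer genes or samples in some of the fits. Angptl8 kept its direction throughout. It was -1.31 with no filter, -1.29 with DESeq2 and -1.26 with the replicate block (adjusted p = 0.000347), and -1.58 to -1.06 with a library left out. Summed ribosomal families (0 called) became 1 with the block and 3 for pseudogenes alone. The labels do not state whether the replicate numbers pair the samples. Deviations of same-numbered libraries correlated at 0.04, 0.10 and 0.22, and those of the other pairs at -0.15 to 0.08. With 3 libraries a group these values do not decide it. Replicates 2 and 3 of shCtrl correlated best with their own number, and replicate 1 with shANG8 replicate 2 (0.08). Among named genes the block ended 1 call, of Rpl10-ps3, and added 13. Sign changes occurred only in named genes that were called in no such fit: with the covariate Rps13 was 0.10, Lpl 0.11 and Pcsk6 -0.33, Rpl38 was -0.01 with no filter, and Pcsk6 was -0.01 with voom and with the block. With a library left out the ranges were -0.12 to 0.13 for Rpl14, -0.24 to 0.31 for Rps12, -0.10 to 0.06 for Rps13, -0.59 to 0.41 for Rps10, -0.13 to 0.14 for Rpl38, -0.07 to 0.22 for Angptl6, -0.24 to 0.21 for Lpl, -0.07 to 0.08 for Lipc, -0.18 to 0.12 for Lipa, -1.34 to 0.02 for Apoc2, -0.09 to 0.44 for Gpd1, -0.21 to 0.15 for Pcsk6 and -0.14 to 0.01 for Sel1l. The number of named genes that differed between arms (27) was 37 with the block, 30 with the covariate and 18 to 31 with a library left out. With 3 libraries a group, changes under 2-fold were mostly beyond the reach of the test.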
